A study of Mus musculus with 30 samples.

Results

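p38α is the stress-activated protein kinase encoded by Mapk14, and the arrays described here read which genes still answered 100 mM NaCl after 2 h in immortalised mouse embryonic fibroblasts (MEFs) that lack it. The comparison holds 4 of the 30 arrays of the series: the 2 of p38α-/- MEFs with NaCl for 2 h against the 2 of untreated p38α-/- MEFs, chosen by their titles. Of 21689 genes on the array, 16615 were measured on all 4 and could be tested. On each array the RNA of the cells named was labelled with Cy5 and hybridised against Cy3-labelled RNA of 2 pooled cultures of untreated wild type MEFs, with no dye swap. A value for 1 array is therefore a log2 ratio to that pool, and the pool cancels in the difference between NaCl and untreated p38α-/- arrays. Set beside it were wild type MEFs with 100 mM NaCl for 2 h (2 arrays), wild type MEFs with the p38 inhibitor SB203580 (10 μM from 30 min before the stress by the study's methods, where the labels give another unit and 2 h) alone or with 100 mM NaCl for 2 h (2 arrays each), and p38α-/- MEFs with anisomycin (25 ng/ml) or TNFα (100 ng/ml) for 45 min (2 arrays each). No untreated wild type array was among the samples, so the wild type response is the ratio to the pool itself and leaves out the spread of the pool. With no dye swap, a dye difference of a gene stays in that ratio, while it cancels between p38α-/- arrays. By the study's methods the 2 arrays of a group came from independent experiments, and the sources used here do not describe more than 1 line of p38α-/- MEFs.

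A rise in external salt draws water out of a cell, and within minutes activates p38 and related kinases, which phosphorylate transcription factors and chromatin proteins at immediate early genes. These are genes such as Fos, Jun and Egr1, whose transcription starts without new protein synthesis. A slower arm led by the factor Nfat5 raises transporters and enzymes that accumulate organic osmolytes.

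Mapk14 was read by 1 probe. Its log2 ratio was -0.94 on the first untreated p38α-/- array, with the spot of the second marked as an outlier, and -1.09 and -1.93 with NaCl, against 0.47 and 0.05 in wild type MEFs with NaCl. All measured p38α-/- values lay below the wild type ones. Whether the probe lies in the deleted part of the gene is not given in the sources used here. Between 81.1% and 95.2% of probes were well above background in Cy5 on the 4 arrays, the lowest of all 30 being the second p38α-/- array with NaCl. The 11 fibroblast markers were well above background on all 4 arrays, with a summed signal of 177399 to 190098 untreated and 177538 to 205156 with NaCl. The 9 haematopoietic and 5 of the 6 endothelial markers also passed that low bar. Their summed signals were 14045 to 14801 and 4437 to 4458 untreated, and 12972 to 16658 and 4590 to 4605 with NaCl. So did the 7 epithelial entries, which stand for 6 genes on the array. Their summed signal, in which 1 gene may count more than once, was 30695 to 37826 untreated and 37915 to 39001 with NaCl.

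NaCl still changed a set of genes without p38α. At an adjusted p under 0.05 (limma, Benjamini-Hochberg), 95 genes rose (0.572% of those tested) and 84 fell (0.506%), and all of them had untreated and NaCl arrays that did not overlap, which was so for 19.3% of tested genes in the upward and 17.2% in the downward direction. Unadjusted p was under 0.05 for 867 higher and 847 lower genes. At 2.5-fold without a test, 98 genes (0.59%) were higher and 33 (0.199%) lower. The rises were larger: 41 of the 95 reached 2.5-fold, with a median log2 difference of 1.17 (range 0.57 to 3.90), against 14 of the 84 falls, whose median size was 0.89 (range 0.51 to 1.99). With the replicate number as a block, 201 genes rose (1.21%) and 172 fell (1.04%), including all 95 and all 84. Without the second p38α-/- NaCl array, 22 rose and 4 fell, and without the first untreated one 38 and 15. No gene of the 95 and 84 could change direction in either fit, since its untreated and NaCl arrays did not overlap.

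The largest rise was that of Adamts1, a secreted metalloprotease. Its log2 ratio was 0.17 and -0.81 untreated and 3.77 and 3.39 with NaCl, a difference of 3.90 ± 0.56 (SE from limma, adjusted p = 0.00163). Only 1 of its 2 probes was measured on all 4 arrays, at a difference of 3.53. Fos, a subunit of the transcription factor AP-1, went from 0.91 and 0.09 to 3.39 and 4.42, a difference of 3.40 ± 0.46 (SE from limma, adjusted p = 0.00116). Both genes were at least 2 log2 units higher on every NaCl array than on either untreated one. Jun, the partner of Fos in AP-1, was at 0.60 and 0.22 untreated and at 2.98 and 3.20 with NaCl, a difference of 2.68. Dusp1, the phosphatase that removes the activating phosphates from p38 and JNK, was at 0.66 and 0.31 untreated and at 3.77 and 3.84 with NaCl. Its difference of 3.32 ± 0.21 had the lowest adjusted p of the comparison, 2.75e-05 from limma, shared with Gadd45b. On a linear scale Dusp1 rose 10-fold.

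Ier3, an immediate early gene linked to cell survival, started well below the wild type pool, at -1.76 and -1.91, and reached 0.74 and 1.08 with NaCl, a difference of 2.75. Gadd45b, a stress-inducible regulator of MAP kinase cascades, went from -0.45 and -0.85 to 1.76 and 1.88. Neither gene's untreated and NaCl arrays overlapped. Rhoe (now Rnd3) rose by 2.5, from -0.50 and -0.40 to 1.97 and 2.13, but none of its 3 probes was measured on all 4 arrays, so its mean holds different probes on different arrays. Sgk (now Sgk1), a kinase that responds to cell volume and activates sodium transport, rose by 2.42, from 0.67 and 0.17 to 2.91 and 2.77. Ptgs2, the inducible prostaglandin synthase, rose by 2.28, from 0.74 and 0.12 to 2.78 and 2.64. The remaining members of the 12 largest rises were the homeobox gene Dlx2 (2.44), the pluripotency and differentiation factor Klf4 (2.22) and 1700016G22Rik (2.25), all with NaCl arrays above untreated ones. Dlx2, Ptgs2 and Klf4 had the weakest evidence of the 12, with adjusted p of 0.0335, 0.0394 and 0.0428 from limma. They were not called once the second NaCl array was left out, at adjusted p of 0.409, 0.269 and 0.434 from limma, while their differences stayed at 2.18, 2.35 and 2.03.

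**Figure D1:**
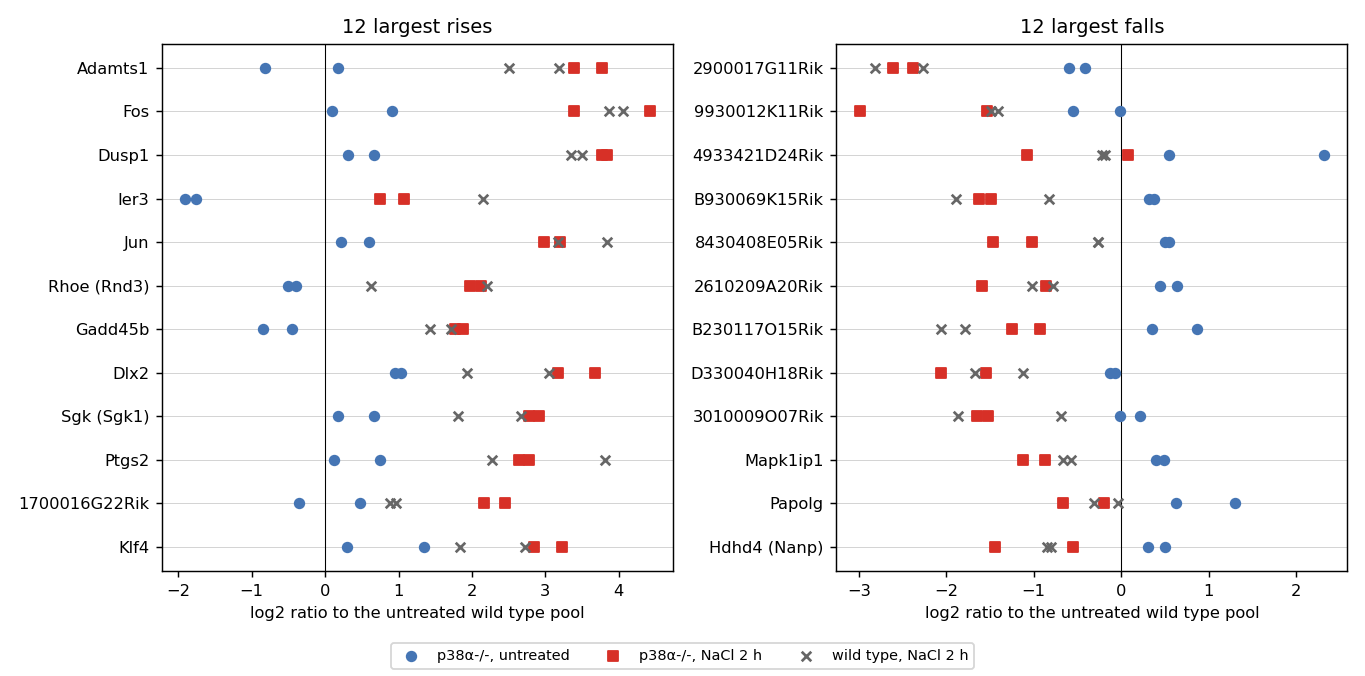
Log2 ratio to the untreated wild type pool on each array for the 12 genes with the largest rise (left) and the 12 with the largest fall (right) in p38α-/- MEFs. Circles are untreated and squares NaCl-treated p38α-/- arrays, crosses are wild type arrays with NaCl, and in each row the squares lie clear of the circles, with the widest gaps for Adamts1 and Dusp1.

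The proximal promoters of these 12 genes (RefSeq, GRCm38.p6, 250 bases before to 50 bases after the gene start) were read for short motifs, on both strands. TGACG, the core of the cyclic AMP response element bound by CREB and ATF factors, occurred in 8 of the 12 (66.7%), in 30 of the 67 risen genes with a promoter in the table (44.8%) and in 17 of 53 fallen ones (32.1%), against 23.0% of all 27025 genes. TATAA, the core of the TATA box, occurred in 66.7%, 34.3% and 11.3% of the same sets and in 28% of all genes. The full element TGACGTCA, which contains TGACG, was in 1 of the 12, 4.48% of risen, 5.66% of fallen and 2.03% of all genes. The AP-1 site TGANTCA was in 0 of the 12, 10.4% of risen, 3.77% of fallen and 8.97% of all genes. These are matches of letters, and Sgk1 has 6 such windows where the other genes have 1. The stretches upstream of the start of 4 of the largest rises are shown because they carry the match, with TGACG and TATAA on either strand in capitals. Fos lies on the plus strand at chr12:85473741-85473889 and Dusp1 on the minus strand at chr17:26508473-26508683. Adamts1 lies on the minus strand at chr16:85803114-85803303 and Dlx2 on the minus strand at chr2:71546755-71546832.
Fos: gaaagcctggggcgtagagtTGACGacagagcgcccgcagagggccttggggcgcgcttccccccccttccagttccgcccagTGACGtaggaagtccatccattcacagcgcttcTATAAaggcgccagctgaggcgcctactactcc
Dusp1: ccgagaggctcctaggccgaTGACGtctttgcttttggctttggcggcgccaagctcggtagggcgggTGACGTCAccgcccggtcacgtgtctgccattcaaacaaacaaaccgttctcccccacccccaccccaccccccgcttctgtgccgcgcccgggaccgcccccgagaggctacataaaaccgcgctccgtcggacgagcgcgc
Adamts1: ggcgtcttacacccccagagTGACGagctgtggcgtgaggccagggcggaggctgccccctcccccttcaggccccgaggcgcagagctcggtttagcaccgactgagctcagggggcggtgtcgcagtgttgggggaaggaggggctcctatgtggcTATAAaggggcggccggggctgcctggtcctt
Dlx2: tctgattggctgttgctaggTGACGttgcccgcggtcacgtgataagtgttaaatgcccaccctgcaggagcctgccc

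The lists that follow were chosen with earlier results of these data known, and 0.572% of all tested genes rose. The median log2 difference of the early response regulators was 1.68 against 0.0072 over all tested genes. In that list 7 of 15 measured members rose and 0 fell. Besides Ier3 and Klf4 these were Ier5 (2.09), the zinc finger factor Egr1 (2.05), the orphan nuclear receptor Nr4a2 (1.93), Nmyc1 (now Mycn, 1.88) and Klf6 (1.56). Not every member passed the test. Myc was at 1.79 and 0.15 untreated and 2.30 and 3.66 with NaCl (difference 2.01, adjusted p = 0.298 from limma), and Egr3 and Egr4 differed by -0.24 and 0.07. Within AP-1 and the small Maf factors, 2 of 9 rose, Fos and Jun, while Junb (1.09), Atf3 (0.90), Maff (0.80) and Mafk (0.57) were not called. Hes1, a transcriptional repressor of the Notch pathway, rose by 1.84.

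Feedback genes of several pathways rose too, where 0.572% of all tested genes did. Among MAP kinase phosphatases 2 of 7 rose, Dusp1 and the nuclear phosphatase Dusp4 (1.57), and Dusp10, which acts on p38 and JNK, had a difference of 1.55 at an adjusted p of 0.0515 from limma, and 0.0176 with the replicate number as a block. In the list of TGF-β feedback and Id genes 4 of 13 rose: Smad7, the inhibitory Smad, from 0.11 and -0.20 to 1.81 and 1.90, then Tgif (now Tgif1, 1.54), Id2 (1.40) and Twist1 (1.35). The untreated and NaCl arrays of Smad7 lay far apart. The mRNA decay factors Zfp36 and Zfp36l1, which bind AU-rich elements and shorten the life of cytokine messages, rose by 1.5 and 1.48, the only 2 of 9 in their list, with Btg2 at -0.72 and not called. Spry2 (1.14), an inhibitor of receptor tyrosine kinase signalling, and Socs3 (1.01), an inhibitor of JAK and STAT signalling, were also called, though the 2 probes of Spry2 gave 0.065 and 2.22.

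Among growth factors, coagulation and matricellular genes 4 of 18 rose, against 0.572% of all tested genes. They were Adamts1, Rhoe, the coagulation initiator F3 (1.98) and the neurotrophin Bdnf (1.89). Adm, the vasodilator peptide adrenomedullin, rose by 1.41. Pygl, liver glycogen phosphorylase, was called at 1.93, but its 2 probes gave 0.02 and 3.84. Of the 54 called genes with at least 2 probes on all 4 arrays, 3 had probes of opposite sign and 20 had a smallest probe under 25% of the largest. Col1a1, a fibrillar collagen, was called at 1.03 with a saturated spot on at least 1 of the arrays compared, and its single probe measured on all 4 gave 0.27.

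Many stress programs showed little that passed the test after 2 h. Of 11 genes of osmolyte transport and cell volume 1 rose, Sgk. The median of this list was 0.20, with 8 of the 11 above 0. In 7 of the 11 both NaCl arrays lay above both untreated ones, against 19.3% of all tested genes. Slc38a2, a neutral amino acid transporter, was at -0.07 and -0.16 untreated and at 0.58 and 0.64 with NaCl, a difference of 0.73 that was not called (adjusted p = 0.176 from limma). The inositol transporter Slc5a3 and Nfat5 itself differed by 0.25 and 0.13, and the taurine transporter Slc6a6 by 0.49. Akr1b3, aldose reductase, had a difference of -0.51 that rests on 1 array: it was at -1.39 on the first and -0.13 on the second NaCl array. Of 22 inflammatory mediators 1 rose, Ptgs2, with a median of 0.28. Tnfaip3 and Nfkbiz, targets of NF-κB, were at 0.83 and 1.12 without passing. In the p38 pathway itself 0 of 11 measured members passed in limma, also at an unadjusted p under 0.05, and they ranged from -0.30 to 0.12.

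By limma, 0 members were called among 15 heat shock genes (median 0.06, with 1 at an unadjusted p under 0.05), 7 of the integrated stress response (-0.16, 0 unadjusted), 7 of the oxidative response (-0.06, 0 unadjusted), 14 of sterol synthesis (0.17, 1 unadjusted) and 12 of glycolysis (-0.08, 1 unadjusted). The same was so of 13 DNA replication genes (median -0.03, 0 unadjusted), 11 mitosis genes (-0.05, 1 unadjusted), 10 solute carriers that the study discusses (0.07, 2 unadjusted) and 9 histone genes (-0.05, 0 unadjusted). Called members in the other lists were Gadd45b alone of 13 p53 targets and Col1a1 alone of 14 matrix genes. Of the marker lists, Col1a1 was the 1 called gene among 7 fibroblast markers measured on all 4 arrays, and 0 were called by limma among 9 haematopoietic (1 unadjusted), 3 epithelial (2 unadjusted) and 5 endothelial markers (0 unadjusted). The epithelial list had a median of 0.33, and its part in the results was not tested.

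**Figure D2:**
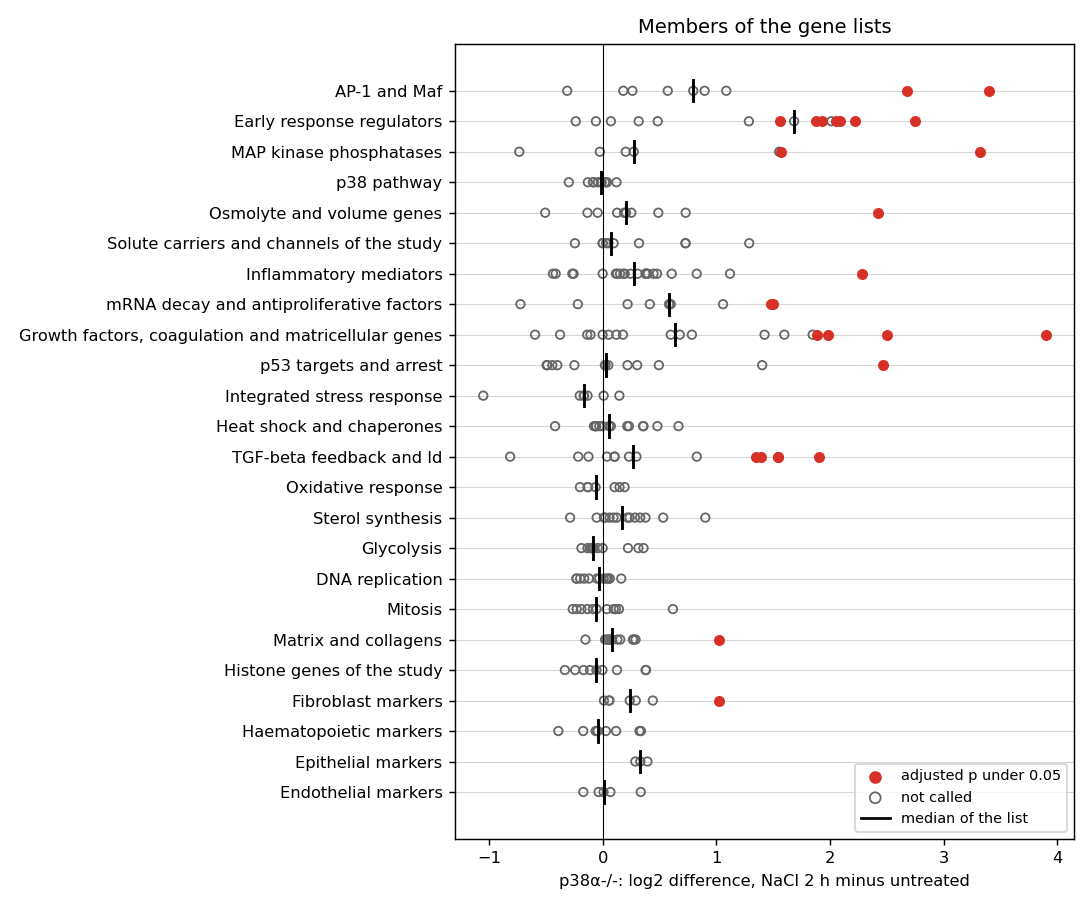
Log2 difference, NaCl 2 h minus untreated, in p38α-/- MEFs for every measured member of the 24 gene lists. Filled points have an adjusted p under 0.05 from limma, open points do not, and bars are list medians: filled points concentrate in the early response, growth factor and TGF-β lists, while the medians of heat shock and cell cycle lists lie near 0. The osmolyte list has a median of 0.20 and 1 filled point, Sgk.

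The genes that fell were of another kind. RIKEN or predicted names made up 65.5% of them, against 36.2% of all tested genes and 23.2% of the rises. Many carried a zinc finger symbol, which is Zfp, Zbtb, Zscan, Zkscan or Znf and a number, by the newer RefSeq symbol. These were 25 of the 84 (29.8%), against 328 of the 16615 tested (1.97%). Of the 95 rises 3 had such a symbol, among them the mRNA decay factors Zfp36 and Zfp36l1. Most Zfp genes encode DNA-binding repressors with arrays of C2H2 fingers. This set was chosen after its values were seen and is described without a test. Its 25 log2 ratios spanned -0.36 to 0.58 on the first and -0.49 to 0.37 on the second untreated array, and -1.16 to -0.29 and -1.44 to -0.41 with NaCl. The falls were small and even, from -0.60 for Zfp97 to -1.32 for Zbtb20, with a median of -0.82. In wild type MEFs with NaCl 19 of the 25 were called down too by limma, and the median of the 25 was -0.55. Over all 328 measured zinc finger genes the median was -0.22, and 233 (71.0%) lay below 0, against 48.3% of all tested genes. Several fallen genes with predicted names had near-equal values, such as LOC382161 and LOC435917, both at -0.73, and whether 1 probe reads several related transcripts was not tested. The arrays read the RNA of a whole culture, so fewer cells that express a gene and less RNA per cell cannot be told apart.

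Zbtb20, a repressor of the BTB and zinc finger family, was at 0.41 and 0.17 untreated and at -0.94 and -1.13 with NaCl. Zfp429 (AI929863 on the array) was at 0.15 and 0.25 untreated and at -1.0 and -1.18 with NaCl. Both fell with no overlap between the arrays. In wild type MEFs Zfp429 was at -1.15, close to its fall without p38α, while Zbtb20 was at -0.19 and 0.04. The difference between genotypes for Zbtb20, -1.25 ± 0.22 (SE), had an adjusted p of 0.0588 from limma, and was called with the replicate number as a block (adjusted p = 0.0228 from limma). Only 1 of its 3 probes was measured on all 4 p38α-/- arrays, at a difference of -1.91.

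**Figure D3:**
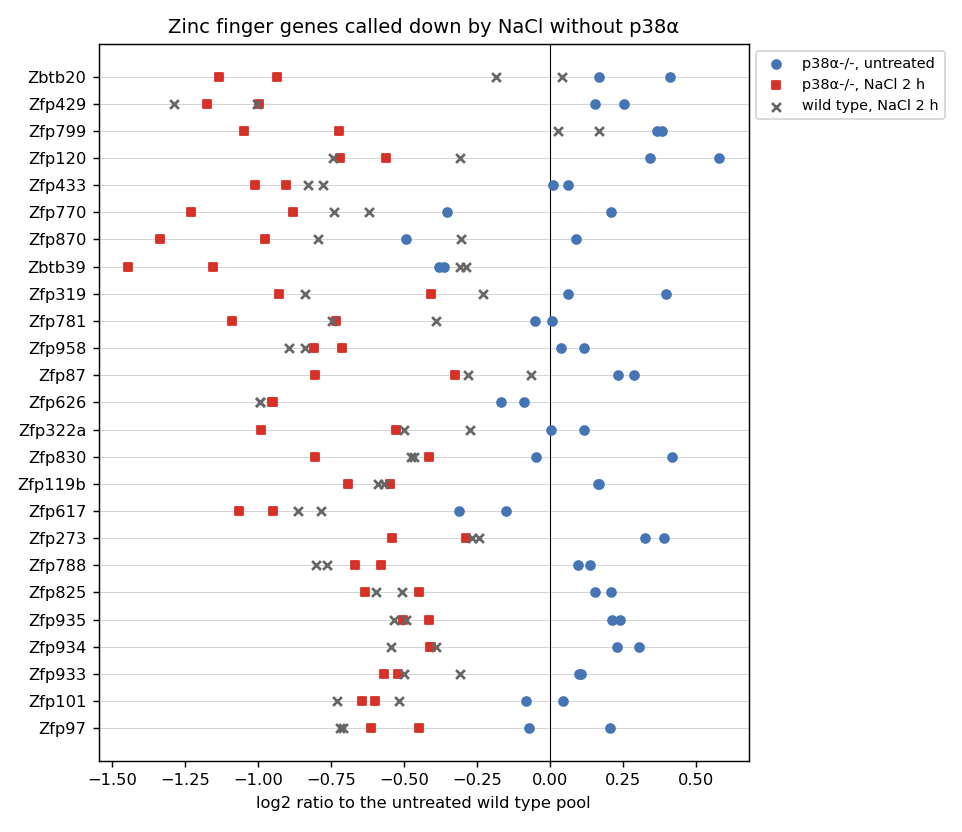
Log2 ratio to the untreated wild type pool for the 25 zinc finger genes called down by NaCl in p38α-/- MEFs, ordered by their difference. Circles are untreated and squares NaCl-treated p38α-/- arrays, crosses are wild type arrays with NaCl, and for each gene both squares lie below both circles, while the crosses of Zbtb20, Zfp799 and Zbtb39 lie well above the squares. Of the 25 genes, 19 were called down in wild type MEFs with NaCl too.

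Of the 12 largest falls, 6 still carry a RIKEN clone name or similar in RefSeq. 2900017G11Rik was at -0.41 and -0.60 untreated and at -2.61 and -2.38 with NaCl, a difference of -1.99 ± 0.34 (SE from limma, adjusted p = 0.00528). Papolg, a poly(A) polymerase, went from 1.30 and 0.63 to -0.19 and -0.67, and Hdhd4 (now Nanp), a sialic acid phosphatase, from 0.50 and 0.30 to -0.55 and -1.44. Both fell by 1.40 on the log2 scale, and their arrays did not overlap. Of the 12, 5 were not well above background on either NaCl array and have only a bound: Mapk1ip1 was at least 2.66-fold, 3010009O07Rik (now Trpc2) at least 1.87-fold and B930069K15Rik at least 1.66-fold lower with NaCl, and 8430408E05Rik (now Uevld) has none. For B230117O15Rik the bound from Cy5 signals came out above the fold from the ratios, 3.25, so none is given. The bounds compare the untreated mean signal with the higher of the lowest signal well above background and the dim probe's own. Plk4, the kinase of centriole duplication, was called at -1.15, but its probes ranged from -2.70 to 0.06. Other named falls were Anxa6 (-1.22), an annexin, Taf7 (-0.98), a subunit of the general factor TFIID, and Mrpl44 (-1.24), a mitochondrial ribosomal protein. The 12 largest falls could not change direction when an array was left out, since their arrays did not overlap, but they leaned on single arrays. Without the second NaCl or the first untreated array, fewer of the 12 largest falls than of the 12 largest rises stayed called by limma. The part of the low signal on the second NaCl array in this was not tested.

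The question the knockout serves is how much of the wild type response p38α carries. In wild type MEFs 969 of 18504 genes were above the pool (5.24%) and 867 below it (4.69%) after 2 h of NaCl, by limma at an adjusted p under 0.05. Of the 95 genes that rose without p38α, 90 were measured in wild type MEFs and 58 were called up there, with a median log2 ratio of 0.87. Of the 84 that fell, 83 were measured and 52 called down in wild type MEFs, with a median of -0.51. These medians are smaller than those without p38α, on which the genes were chosen.

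Read the other way, 108 genes averaged at least 2.5-fold above the pool in wild type MEFs with NaCl. Only the 86 of them with an adjusted p under 0.05 from limma were kept. In that test p38α-/- arrays enter only the shared variance. These 86 are called wild type-induced below. In p38α-/- MEFs 79 of them were measured, 30 rose (38%, against 0.572% of all tested genes) and 37 were at or above 2.5-fold. The median log2 difference was 1.16, against 1.65 in wild type MEFs. Of the 79, 48 (60.8%) reached at least 50% of the wild type log2 ratio. The study's own rule for dependence is a loss of at least 50% of expression, which is another measure than a share of the log2 ratio. Choosing the genes on the wild type arrays favours high values there, so both comparisons lean towards a weaker response without p38α. Of the 86 genes, 12 had a saturated spot on at least 1 of the 6 arrays compared and 6 were not well above background on a wild type array. Among them were Hist1h1t, H1foo and Shc3, at 0.38, 0.38 and 0.24 without p38α. Without these genes, an alternative chosen after the data were seen, 63 were measured, 29 rose and 47 (74.6%) reached 50%, with medians of 1.5 and 1.74. Without the second p38α-/- NaCl array 12 of 78 rose, and 17 of 80 without the second untreated one.

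Among the strongest wild type responses, Dusp1 reached 97.0% of its wild type log2 ratio, Dlx2 97.7%, Klf4 97.3%, Fos 85.9%, Jun 76.4% and Ptgs2 74.9%, while Adamts1 (137%) and Gadd45b (157%) exceeded it. Neither excess was called as a difference between genotypes (adjusted p = 0.501 and 0.216 from limma). Id2, an inhibitor of basic helix-loop-helix factors, was at 57.9%. Six4, a homeobox gene, was at 2.03 without p38α and 2.5 in wild type MEFs, yet was not called without p38α (adjusted p = 0.265 from limma). Of the other strong wild type genes, Cyr61 had no untreated p38α-/- value and Edn1 only 1, so neither could be tested, and with NaCl they were at 2.68 and 2.49, and at 2.89 and 2.37.

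Among the 16 unsaturated genes that stayed under 50% were Maff (40.2%) and Mafk (37.4%), small Maf factors, the chaperone Hspa1a (26.7%) and the nuclear receptor Nr2f1 (22.3%), named after their values were seen. Hspa1a was at -0.51 and -0.73 untreated, -0.15 and -0.37 with NaCl, and 1.52 and 1.18 in wild type MEFs with NaCl. Nr2f1 was at -0.76 and -1.21, then -0.31 and -1.03, against 1.43 and 1.38. For both genes the wild type arrays were far above all p38α-/- arrays, while the untreated p38α-/- arrays already lay below the pool. Wild type MEFs with SB203580 alone were above the pool without salt, at 0.58 and 0.74 for Hspa1a and 1.01 and 0.89 for Nr2f1. With NaCl added to SB203580 they were at 0.58 and 1.79, and at 1.02 and 1.02. How much of the wild type ratio of these genes was a response to salt was not tested.

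The difference between the genotypes was also tested directly. By limma, 0 of 15939 genes responded more and 0 less without p38α than in wild type MEFs at an adjusted p under 0.05 (0%), with 1085 and 1082 at an unadjusted p under 0.05. Of the 79 wild type-induced genes, 32 were lower and 2 higher at an unadjusted p under 0.05. These genes were chosen for high wild type values, which the difference subtracts, so a lean towards lower was built in. With the replicate number within genotype as a block, 80 genes were called higher and 57 lower over all genes tested, and 2 of the 79 lower, Rpl39 and 4921505D17Rik. Rpl39, a ribosomal protein gene, was at 1.12 and 0.81 untreated, 1.24 and 0.88 with NaCl, and 1.75 and 1.85 in wild type MEFs, so its p38α-/- arrays were above the pool before salt was added. A p that misses the threshold does not show that the responses were equal: the SE of the difference was 0.57 for Fos, whose difference was -0.56, and 0.37 for Hspa1a, whose difference was -0.99.

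**Figure D4:**
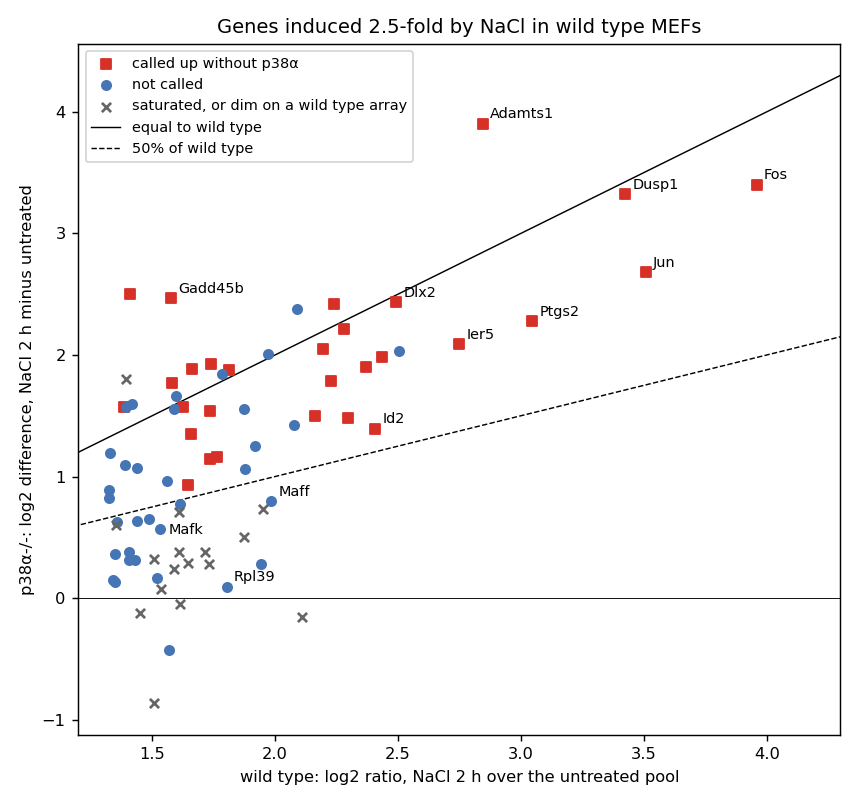
Log2 difference with NaCl in p38α-/- MEFs (vertical) against the log2 ratio with NaCl in wild type MEFs (horizontal) for the 79 wild type-induced genes measured in both. Squares were called up without p38α and circles were not, crosses mark saturated or dim genes, and every square lies above the broken line of 50%, with Adamts1 and Gadd45b among the genes above the line of equal response.

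SB203580 blocks p38α and p38β in cells that keep the kinase. With SB203580, NaCl raised 130 genes (0.891% of 14584 tested by limma) and lowered 288 (1.97%) relative to SB203580 alone. Of 13943 genes tested in both settings, 36 were called up in both, 42.9% of those called without p38α and 28.6% of those called with SB203580. Of the falls, 57 were called down in both, 75.0% of those without p38α and 20.7% of those with SB203580. The 84 genes that fell without p38α had a median of -1.07 with SB203580, and 20 of the 22 zinc finger genes measured there were called down too. Jun (2.06), Dusp1 (2.60), Adamts1 (2.96) and Gadd45b (2.00) rose with SB203580 as they did without p38α. Fos differed by 1.07 with SB203580 (adjusted p = 0.267 from limma), Egr1 by 0.87, Dlx2 by 0.33 and Tgif by -0.01, and the gaps to their values without p38α were not tested. Fos was already at 2.40 and 2.25 with SB203580 alone, against 3.10 and 3.68 with NaCl added. Dlx2 was at 2.51 and 0.72 with SB203580 alone and at 2.04 and 1.84 with NaCl added. Both genes were above the pool with SB203580 alone, and the arrays of Dlx2 overlapped. With the replicate number as a block, 292 genes were called up and 462 down with SB203580.

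Anisomycin, which blocks translation and activates p38 and JNK, and TNFα, an inflammatory cytokine, were given to p38α-/- MEFs for 45 min in place of 2 h, and their contrasts share the untreated arrays with that of NaCl. Anisomycin raised 13 genes (0.0786%) and lowered 1 (0.00605%), and TNFα raised 12 (0.078%) and lowered 0 (197 at an unadjusted p under 0.05), by limma. Of the 12 largest rises with NaCl, Jun was at 4.42 with anisomycin and 2.61 with TNFα, Fos at 2.87 and 1.72, Dusp1 at 3.37 and 1.16, and Ier3 at 2.17 and 2.65. Sgk was at 0.30 and -0.24, Ptgs2 at 0.40 and 0.03, Dlx2 at 0.39 and 0.00, Klf4 at 0.68 and -0.10, and 1700016G22Rik at -0.18 and 0.22. Gadd45b was at 1.49 and 1.87, Adamts1 at 1.32 and 1.2, and Rhoe at 0.98 and 0.59. Jun, Ier3 and Gadd45b were called with both agents and Fos and Dusp1 with anisomycin, while Fos and Dusp1 with TNFα (adjusted p = 0.751 and 0.124 from limma) and the remaining 7 genes with either were not. Time and stress differ together and cannot be told apart. The 25 fallen zinc finger genes had medians of 0.23 with anisomycin and -0.27 with TNFα.

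**Figure D5:**
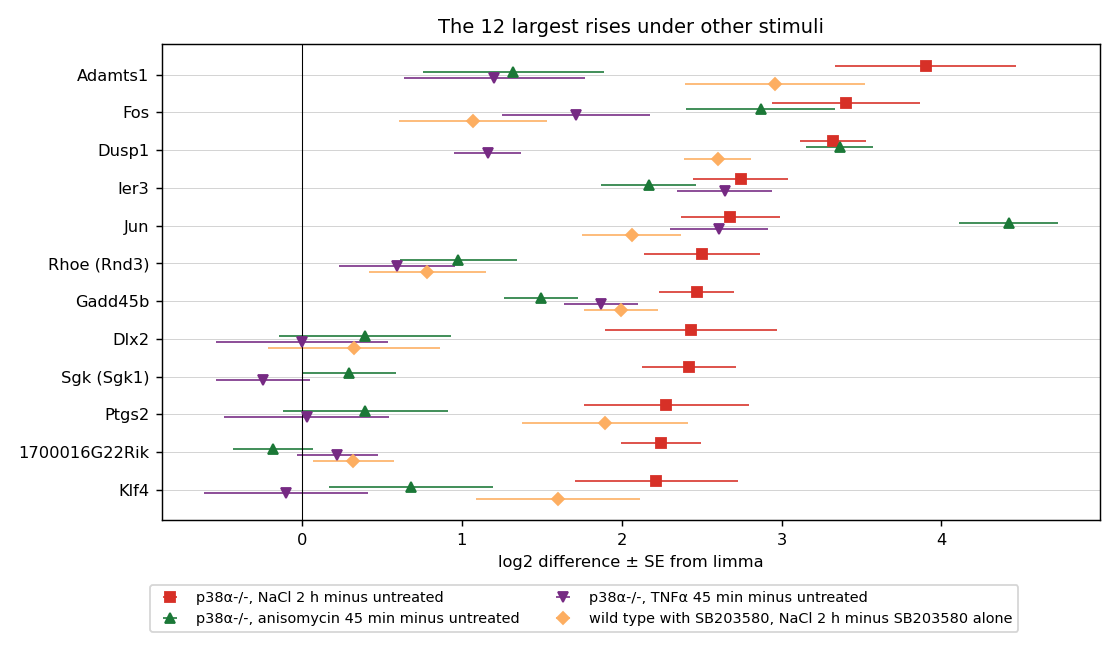
Log2 difference ± SE from limma for the 12 genes with the largest rise with NaCl in p38α-/- MEFs (squares), beside anisomycin (upward triangles) and TNFα (downward triangles) in the same cells after 45 min and NaCl with SB203580 in wild type MEFs (diamonds). Of the 12, only Sgk, Klf4 and 1700016G22Rik have a value left of 0, and Ier3 and Sgk have no diamond. Sgk and 1700016G22Rik lie within 0.30 of 0 with anisomycin and TNFα.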

How the data were processed

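Agilent 44K arrays with 2 dyes read the total RNA of MEFs, and the values above come from 14 of the 30. Spot intensity was extracted by the authors with Agilent Feature Extraction (8.1.1.1 in the file headers, 9.1 in the submitters' processing notes), with surrogate values for dim signals and dye normalization. The deposited log10 ratio is processed Cy5 over Cy3. The authors also deposited a log2 series matrix, whose scale was judged from its values and whose array medians lie near 0. Flags for outlier, saturated and well above background spots (0 or 1, a score) come from the deposited array files.

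Control and outlier spots were left out, log10 ratios were multiplied by log2 of 10, and means were taken first over a probe's spots, then over a gene's probes. Of 41174 probes, 33453 had a gene name, and newer symbols come from RefSeq. limma 3.58.1 (R 4.3.3) fitted 15 group means to all 30 arrays, with moderated variances and Benjamini-Hochberg adjustment across all genes that every array of a contrast measured. Other steps used numpy 2.4.6 and pandas 2.3.3 in Python 3.11.15, and figures matplotlib 3.10.9. Data were simulated with independent normal noise and 1 spread for each gene. There the p38α-/- contrast recovered 64% of changes of 1 and 97% of changes of 2 log2 units (16615 genes). Of its calls 3.01% were unchanged genes. The difference between genotypes recovered 44% and 94% (15939 genes), with 6.76% of calls unchanged genes. The simulation leaves out the correlation of replicate differences between p38α-/- groups, so these rates may not hold for the measured arrays. With 2 arrays in each group, precision is limited by their number.

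The genes and lists were chosen with earlier results of these data known. Named genes were Mapk14, the 12 largest called rises and falls, the 12 largest wild type inductions at 2.5-fold on both arrays, up to 4 members of each of 24 lists by size of difference (357 of 361 listed genes were on the array, 28 through a newer symbol), and up to 6 per direction of the difference between genotypes, where 0 were called. Other genes and the zinc finger set were named after their values were seen. The difference between the 2 arrays correlated over genes in 6 of 6 pairs of p38α-/- groups (r from 0.151 to 0.447), so the replicate number was taken to pair arrays within a genotype, where it also follows the scanning day. Alternatives are given under the processing section, and RT-PCR, Western blots and other treatments were not analysed here.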

Additional observations from a re-analysis of the deposited data

How the results depend on the processing

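Arrays per group limit every value, and where a left-out array leaves a lone array, its spread was taken from the remaining groups. Counts of genes up and down in p38α-/- MEFs moved from 95 and 84 to 149 and 196 (series matrix), 213 and 178 (scanning batch term), 201 and 172 (replicate block, whose 292 and 462 calls with SB203580 compare with 130 and 288) and 17 and 4 (p38α-/- arrays alone in the fit, with wild type NaCl where used), and outlier spots kept gave 153 up. Leaving out single arrays gave 22 to 159 up and 4 to 192 down, both lowest without the second NaCl array and highest without the first, with 66 and 50 without the second untreated array. With fewer arrays in the fit the differences are the same by construction. In the series matrix 93 of the 95 rises and 83 of the 84 falls kept their direction.

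At 2.5-fold, 98 were up and 33 down, 37 and 2 with normexp and loess, 9 down with spots well above background, 92 to 197 up and 29 to 91 down without single arrays (197 and 91 without the first NaCl, 178 and 83 without the second untreated array), 219 and 91 at 2-fold, 22 and 1 at 4-fold, 74 down within replicate number 1, and 158 and 72 within number 2. In both pairs 62 were up, of which 32 were called, and 11 down, of which 8 were called.

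The difference between genotypes called 0 higher and 0 lower, but 29 and 40 with normexp, 500 and 329 in the series matrix, 6 and 1 with the brightest probe, 5 and 1 with spots well above background, 669 and 98 with outlier spots kept, 80 and 57 with the replicate block, 1 and 1 with the same probes on all arrays, and 0 to 32 and 0 to 33 without single arrays (18 and 33 without the first NaCl, 1 and 0 without the first and 32 and 14 without the second untreated array, 0 and 3 without the first and 2 and 9 without the second wild type array). The cause was not tested. A scanning batch term could not be fitted to a ratio against 0.

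Of wild type-induced genes, 79 were measured and 30 rose. Measured genes were 47 with normexp, 45 with 2.5-fold on both wild type arrays and 45 to 144 without single arrays, the first and the second wild type array; rises were 11 with fewer arrays and 12 to 46 without single arrays (46 without the second wild type array). The share at 50% of wild type, 60.8%, was 73.5% in the series matrix, 49% with the replicate block, 74.6% without saturated or dim genes, 72.2% at 33%, 49.4% at 67%, and 42.4% (second wild type) to 79.5% (second NaCl) without single arrays.

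Among named genes that were not called, direction turned for Akr1b3 (0.16 in the series matrix, 0.19 with outlier spots kept, -1.13 to 0.12 without single arrays), Rpl39 (-0.04 in the series matrix, -0.084 to 0.27 without single arrays), and, without single arrays, Nr2f1 (-0.047 to 0.67) and 1810008K03Rik (-2.31 to 0.21). The fits on the same probes, without saturated or dim genes and with the block for SB203580 were added after the data were seen.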
